A study of Mus musculus with 6 samples.

Results

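The Sox, Klf and forkhead genes encode 3 large families of DNA-binding transcription factors. Members were taken by symbol alone (Sox or Klf followed by a number, or Fox followed by a letter from a to s and a number). No measured value entered that match, but members and subgroups were chosen with earlier results of these data known. The deposited table lists 14549 genes, and the rule was met by 44 of them, 12 Sox, 15 Klf and 17 forkhead genes. RNA was prepared from the dissected epicardium and subepicardium, the outer layers of the heart, of mouse embryos at E16.5. The control group holds 3 libraries labelled wild-type, numbered 1, 2 and 4. The dKO group holds 3 libraries, numbered 1, 2 and 3, labelled as the Meis1 and Meis2 double knockout, with the genotype Meis1fl/fl;Meis2fl/fl;WT1-Cre. WT1-Cre removes the floxed alleles only from cells with a history of Wt1 expression, so the other cells of the layer keep them. The labels used here do not say whether controls carried the Cre or the floxed alleles. Each library pooled the epicardia of 2 hearts of 1 genotype and used 40 ng of total RNA, so the spread measured is that between pools.

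Sox factors bind DNA through an HMG box and bend it, and their subgroups mark lineages: SoxF genes the endothelium, SoxE genes neural crest derivatives and cartilage, SoxD genes cartilage and muscle, and SoxC genes progenitors. Klf factors bind GC-rich and CACCC boxes through zinc fingers at their C-terminal end and act in the balance of proliferation and differentiation. Forkhead factors bind through a winged helix. The FoxO class is held in the cytoplasm by Akt signalling, Foxm1 drives mitotic genes, and the FoxP and FoxC classes act in heart and vessel development.

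To show the upstream sequence of members that fell together, 250 bases before the RefSeq start (build GRCm38.p6) are given for 3 genes of the activator-type Klf group, Klf4, Klf2 and Klf6. Capitals mark the letters CCNCNCCC on either strand, a box of the kind that Klf and Sp proteins bind, and overlapping matches form 1 run of capitals.
Klf4, chr4:55532476-55532725, strand -: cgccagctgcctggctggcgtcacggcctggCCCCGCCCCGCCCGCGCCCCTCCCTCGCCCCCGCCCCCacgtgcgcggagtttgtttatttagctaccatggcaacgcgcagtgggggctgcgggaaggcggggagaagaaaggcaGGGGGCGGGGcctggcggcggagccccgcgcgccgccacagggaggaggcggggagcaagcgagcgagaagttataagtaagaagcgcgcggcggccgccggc
Klf2, chr8:72318812-72319061, strand +: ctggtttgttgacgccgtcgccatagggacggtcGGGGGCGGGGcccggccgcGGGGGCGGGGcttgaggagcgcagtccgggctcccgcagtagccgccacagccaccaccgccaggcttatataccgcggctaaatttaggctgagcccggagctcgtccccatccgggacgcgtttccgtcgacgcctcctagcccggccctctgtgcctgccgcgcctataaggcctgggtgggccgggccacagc
Klf6, chr13:5861239-5861488, strand +: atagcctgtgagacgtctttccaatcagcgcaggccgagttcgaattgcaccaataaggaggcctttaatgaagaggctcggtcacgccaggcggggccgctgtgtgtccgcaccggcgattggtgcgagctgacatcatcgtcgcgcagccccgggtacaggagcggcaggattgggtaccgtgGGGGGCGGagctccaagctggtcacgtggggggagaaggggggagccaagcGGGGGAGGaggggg

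The promoter table had an entry for 27 of the 44 genes. The letters CCNCNCCC stood in 26 of the 35 promoters of these genes, and in 45.9% of all 32851 promoters of that length. These letters are mostly C or G, and the comparison was not matched for base composition. The median GC content was 52.4% over all promoters, while those of the 27 genes ran from 34.0% (1 of 6 Sox6 entries) to 80.4% (Foxj2). Klf4, Klf2 and Klf6 were at 74.0%, 71.2% and 64.8%. By gene, at least 1 promoter of 10 of 11 Klf, 5 of 7 Sox and 8 of 9 forkhead genes held them. The letters TGACAG, the core that Meis proteins bind, were searched on both strands and stood in 8 of the 35 promoters, against 15.9% of all promoters. Those 8 belong to 7 genes (Sox6, Klf3, Klf8, Klf12, Foxj3, Foxo1 and Foxp1). Of these 7, 2 were lower in the dKO libraries (Klf3 and Sox6) and the others did not pass. Among all 27 genes with an entry, 7 were lower, and a link between the core and the change was not tested. Sox6 has 6 entries in the table, Foxp1 has 3 and Klf8 has 2, which gives these genes more chances of a match. The matches of Klf3 and Sox6 are shown with up to 30 bases around them, and capitals mark the core.
Klf3, chr5:64803271-64803300, strand +: gtgtCTGTCAggctggccccgggtgactgg
Sox6, chr7:115801717-115801746, strand -: ttgcagtttacaCTGTCAatttctctgttt
Sox6, chr7:115824804-115824833, strand -: gctcataacttaCTGTCAactgtgaggccg
A match of letters is a description and not a measured binding site.

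Levels are given as normalised read counts, that is, reads per 1e6 of a library size that was itself scaled. Recovered totals ran from 13146322 to 20635676 reads per library, and 43 of the 44 members had more than 3 reads in every library. The exception was Sox8, with 3 reads in dKO 1. In dKO 1, 19.9% of reads were mitochondrial and 234 genes had 0 reads. These were 11.3% and 98 in dKO 2, 12.4% and 75 in dKO 3, and 5.99% to 10.4% and 59 to 70 in controls. Whether this bears on genes for which dKO 1 stood apart was not tested. For Meis2 the controls were at 86.1, 85.6 and 63.3 and the dKO libraries at 44.5, 34.8 and 44.5 (log2 change -0.90, limma adjusted p = 0.0035), and Meis1 was 106, 63.6 and 63.4 against 58.5, 74.1 and 65.0 (log2 change -0.20, limma adjusted p = 0.521). These values cover all exons and do not measure the deleted parts. All 17 epicardial and mesothelial markers were present, with a summed level of 2749 to 3973 in controls and 524 to 650 in dKO libraries, and 16 of them were lower. The sum of 20 cardiomyocyte markers ran from 6423 to 14271 in controls and from 33625 to 36368 in dKO libraries, with 18 higher, and control 1 was the lowest. In such bulk samples, fewer cells of a type and less RNA per cell cannot be told apart.

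The 3 families differed in how many members changed, as described by counts. With limma on log2 of the value plus 1, adjusted over all 14549 genes at a threshold of 0.05, 12 of the 44 genes changed (27.3%), against 22.0% of all genes. Among Sox genes 2 were higher and 3 lower, among Klf genes 1 was higher and 6 lower, and among the 17 forkhead genes 0 changed. Of all genes, 9.81% were higher and 12.2% lower. With edgeR on recovered reads 2 Sox genes were higher and 4 lower and 1 Klf gene was higher and 5 lower, against 20.3% of all genes (8.96% higher, 11.4% lower). Median log2 changes, dKO minus control, were 0.20 for Sox, -0.31 for Klf and -0.14 for forkhead genes, and 0.00 over all genes. The libraries of the groups did not overlap for 6 of 12 Sox, 10 of 15 Klf and 4 of 17 forkhead genes, against 40.4% of all genes. An absolute log2 change above 0.5 was found for 7 Sox, 8 Klf and 1 forkhead gene, and for 33.3% of all genes.

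In GRCm38 (GENCODE M21 gene models), the Klf genes that changed lie at Klf2 chr8:72319033-72321656, Klf3 chr5:64803388-64832901, Klf4 chr4:55527143-55532466, Klf5 chr14:99298691-99315036, Klf6 chr13:5861482-5870394, Klf9 chr19:23141226-23168134 and Klf11 chr12:24651274-24662789. The Sox genes that changed lie at Sox5 chr6:143828425-144781977, Sox6 chr7:115470872-116038796, Sox7 chr14:63943673-63950732, Sox9 chr11:112782224-112787760 and Sox11 chr12:27334264-27342574.

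**Figure D1:**
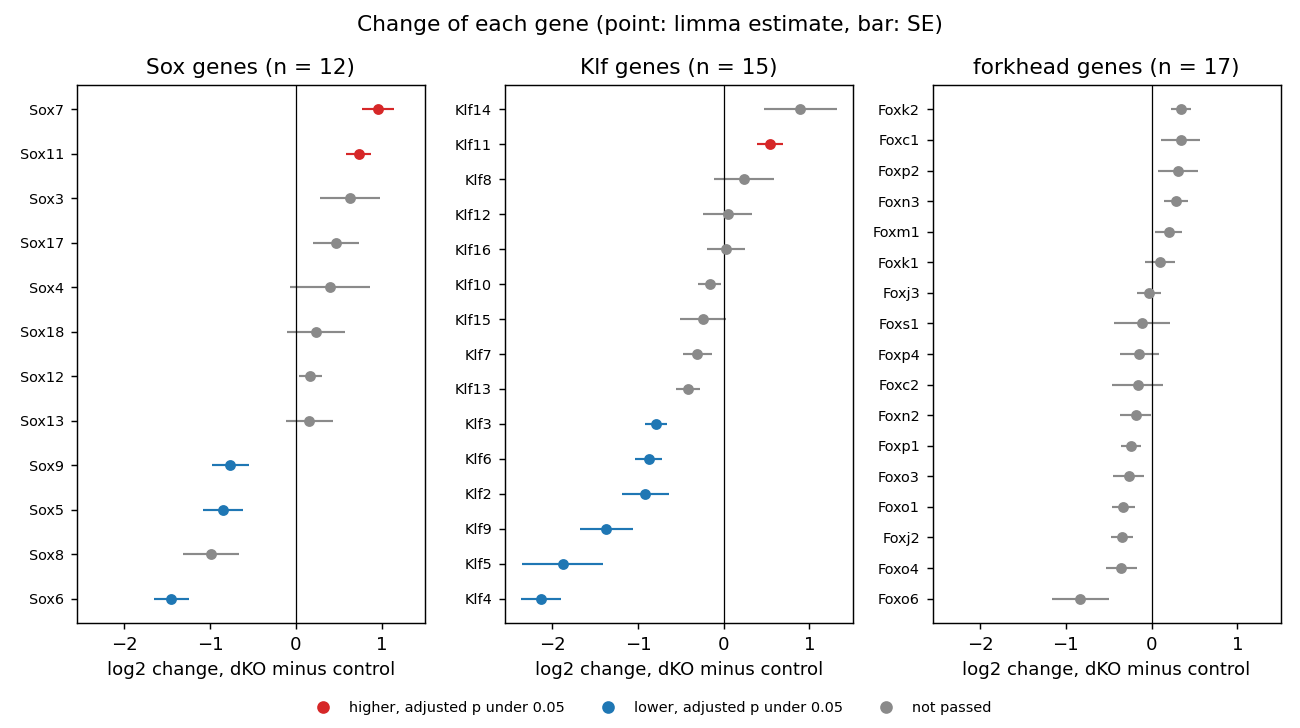
log2 change (dKO minus control) of each of the 12 Sox, 15 Klf and 17 forkhead genes on the x axis, with the limma estimate as a point and its SE as a bar; red points are higher and blue points lower at an adjusted p under 0.05. Klf genes reach from -2.13 (Klf4) to 0.89 (Klf14), and all forkhead genes except Foxo6 lie between -0.35 and 0.34.

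The activator-type Klf genes were lower in the dKO libraries for 4 of 5 members, Klf2, Klf4, Klf5 and Klf6, with a median log2 change of -0.92. Of all genes, 12.2% were lower. Klf4, which acts in cell cycle exit and differentiation and is known as a reprogramming factor, had the most negative limma log2 change of the 44 genes on the log2(value + 1) scale. By the ratio of group means, the lower-level Klf5 (19.7% of control) and Sox8 (21.6%, not past the threshold) stood below Klf4 (22.5%), and edgeR gave -2.35, -2.25 and -2.15 in that order. Klf4 was 55.6, 69.0 and 59.5 in controls 1, 2 and 4, against 20.2, 11.4 and 9.82 in dKO 1, 2 and 3. Each dKO library lay far below each control, and dKO 1 was the highest of the 3. The Klf4 mean fell from 61.4 ± 6.87 to 13.8 ± 5.61 (SD, n = 3), 22.5% of control, with a log2 change of -2.13 (SE 0.24, limma adjusted p = 0.00024).

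Klf6, an early-response factor and the Klf gene with the highest level per kb of exon, was 214, 187 and 176 in controls, against 131, 92.9 and 92.6 in dKO libraries. Its dKO mean was 54.9% of the control mean (log2 change -0.87, SE 0.16, limma adjusted p = 0.0033); dKO 1 was the highest of the dKO libraries and still below all controls. Klf2, which in endothelium responds to blood flow, was 28.9, 39.5 and 32.2 in controls, against 28.1, 14.5 and 12.3 in dKO libraries. The Klf2 values of dKO 1 and control 1 nearly met. Its log2 change of -0.92 (SE 0.27, limma adjusted p = 0.0376) did not pass when control 2, control 4, dKO 2 or dKO 3 was omitted (limma adjusted p = 0.121, 0.0823, 0.121 and 0.131), nor with edgeR on recovered reads (adjusted p = 0.0679).

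Klf5, which promotes proliferation in epithelium and smooth muscle, spread widely over the controls, at 24.9, 11.1 and 5.87, against 4.13, 1.15 and 2.95 in dKO libraries. The lowest control and the highest dKO library were less far apart than the controls among themselves. The Klf5 log2 change was -1.88 (SE 0.47, limma adjusted p = 0.0183), and adjusted p = 0.0665 with limma without dKO 2. Klf7, the remaining member of the group and named for its broad expression, was 33.5, 32.4 and 41.9 in controls, against 24.5, 31.9 and 30.04 in dKO libraries. These groups did not overlap, but the log2 change of -0.31 did not pass (limma adjusted p = 0.217); Klf7 shares 39.4% of its exonic bases with other genes.

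Of the Klf genes whose products recruit the corepressor CtBP, 1 of 3 was lower, against 12.2% of all genes. Klf3 was 161, 140 and 128 in controls, against 75.1, 85.6 and 85.6 in dKO libraries, with no overlap and a dKO mean of 57.3% of control (log2 change -0.79, SE 0.13, limma adjusted p = 0.0019). Klf12 (14.4 ± 6.83 and 14.1 ± 2.07, SD, n = 3) and Klf8 (0.843 ± 0.621 and 1.12 ± 0.401, SD, n = 3) had overlapping groups and did not pass. For Klf12, control 1 (22.3) stood above controls 2 and 4 (11.3 and 9.75).

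The 6 Klf genes of the SIN3A-binding group moved in both directions. Klf9, which responds to glucocorticoid and thyroid hormones, was 18.2, 7.63 and 9.24 in controls, against 3.70, 3.88 and 3.29 in dKO libraries (log2 change -1.37, SE 0.31, limma adjusted p = 0.0109). Its dKO values lay close together, and control 1 was farther above the other controls than these were above the dKO libraries. Klf11, a TGF-beta-inducible repressor, was the only Klf gene that was higher, at 24.2, 27.0 and 21.0 in controls and 36.0, 34.3 and 35.6 in dKO libraries. The Klf11 groups were well apart, with a log2 change of 0.54 (SE 0.15, limma adjusted p = 0.0273). That call was lost when control 4, dKO 1, dKO 2 or dKO 3 was omitted (limma adjusted p = 0.0843, 0.0614, 0.0730 and 0.0941).

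Klf10, the closest relative of Klf11 in this group, was 35.2, 34.4 and 35.2 in controls, against 28.8, 33.2 and 31.4 in dKO libraries (log2 change -0.17, limma adjusted p = 0.428). Within a library, the ratio of Klf11 to Klf10 was 0.686, 0.783 and 0.598 in controls, against 1.25, 1.03 and 1.14 in dKO libraries, so Klf10 was the higher of the pair by reads in every control and Klf11 in every dKO library. An exact two-sided permutation test of this ratio gave p = 0.1, the smallest that 3 against 3 libraries allow. It is 1 of 10 ratios of related members that were picked after their values were seen (adjusted p = 0.125 over the 10 exact permutation tests). Klf13, which acts in heart and immune cell development, was 73.2, 65.1 and 72.8 in controls, against 57.7, 56.2 and 44.5 in dKO libraries, without overlap (log2 change -0.41, limma adjusted p = 0.0578). Klf16 was 10.8 ± 1.08 and 11.1 ± 2.39 (SD, n = 3) and did not pass.

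For Klf14, control 1 had 6.45 while controls 2 and 4 had 1.12 and 1.87, against 6.68, 5.07 and 5.24 in dKO libraries. Control 1 thus lay among the dKO libraries and away from the other controls. With all libraries the Klf14 log2 change was 0.89 (limma adjusted p = 0.164), and without control 1 it was 1.43 (limma adjusted p = 0.0091). Klf15, a metabolic regulator of heart muscle placed in no group here, was 7.47 ± 1.53 and 6.26 ± 2.05 (SD, n = 3) and did not pass (log2 change -0.24, limma adjusted p = 0.572). The sum of the Klf genes per kb of exon was 146, 139 and 128 in controls, against 98.2, 77.8 and 75.1 in dKO libraries. Klf6 made up 31.8% of that sum in controls and 28.7% in dKO libraries, while Klf4 went from 14.6% to 5.42%, and from the second to the seventh place among Klf genes.

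**Figure D2:**
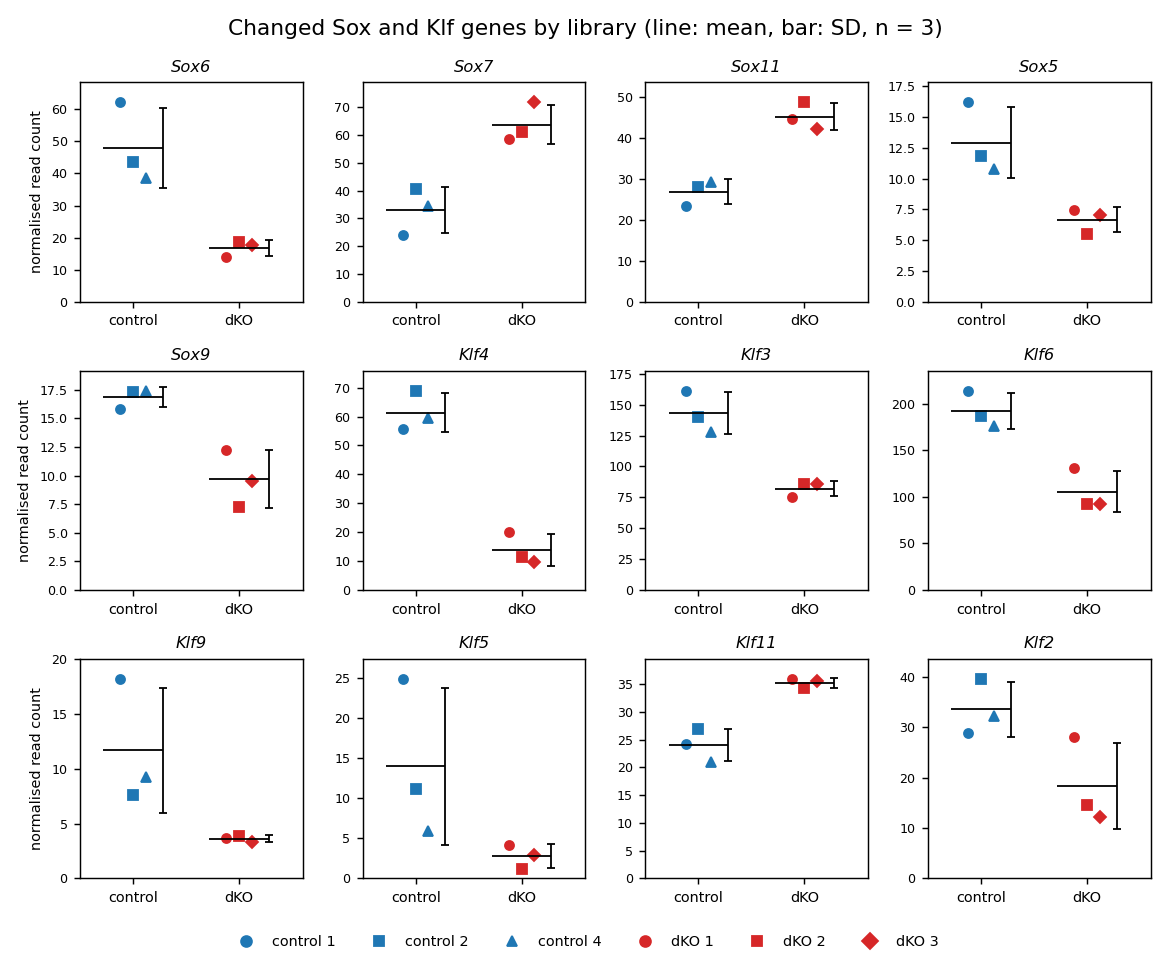
Normalised read count (y axis, starting at 0) of the 12 changed Sox and Klf genes in each of the 3 control (blue) and 3 dKO (red) libraries; lines are group means and bars SD (n = 3). The groups overlap for 0 of the 12 genes, which were picked by limma on these same values. Of all genes, 40.4% had groups that did not overlap. Klf5 and Klf9 show the wide control spread, with control 1 at 24.9 and 18.2.

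The SoxD genes Sox5 and Sox6, whose products lack a transactivation domain and act with Sox9 in cartilage, were lower in the dKO libraries. Sox6, which also acts in muscle and red cell development, was 62.2, 43.4 and 38.6 in controls, against 13.9, 18.5 and 17.8 in dKO libraries. The gap between the groups was larger than the spread within the dKO libraries, and the dKO mean was 34.8% of control (log2 change -1.45, SE 0.20, limma adjusted p = 0.00089). Sox5 was 16.2, 11.8 and 10.8 in controls, against 7.43, 5.51 and 7.04 in dKO libraries (log2 change -0.85, SE 0.23, limma adjusted p = 0.0259). The Sox5 call was lost when control 1, control 2, dKO 2 or dKO 3 was omitted (limma adjusted p = 0.0872, 0.0550, 0.0940 and 0.0642).

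Sox13, the remaining SoxD gene, was 10.03, 10.6 and 11.5 in controls, against 19.2, 9.58 and 9.43 in dKO libraries, so dKO 1 alone was above the controls (log2 change 0.16, limma adjusted p = 0.725). The ratio of Sox6 to Sox13 was 6.20, 4.11 and 3.35 in controls, against 0.724, 1.93 and 1.88 in dKO libraries, with no overlap (exact permutation p = 0.1, adjusted p = 0.125 over the 10 ratios). The ratio of Sox6 to Sox5 was 3.84, 3.67 and 3.58 in controls, against 1.87, 3.36 and 2.52 in dKO libraries (exact permutation p = 0.1, adjusted p = 0.125).

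Of the SoxE genes, Sox9, a regulator of cartilage and of valve and epicardium-derived mesenchyme, was 15.8, 17.3 and 17.4 in controls, against 12.3, 7.29 and 9.52 in dKO libraries. The controls were close together and all above the dKO libraries (log2 change -0.76, SE 0.22, limma adjusted p = 0.031). With control 2, control 4, dKO 2 or dKO 3 omitted, Sox9 did not pass (limma adjusted p = 0.0838, 0.0832, 0.112 and 0.0860). Sox8, a neural crest and glial gene, was low throughout, at 2.32, 1.05 and 2 in controls and 0.218, 0.333 and 0.609 in dKO libraries. The Sox8 groups did not overlap, and its log2 change of -0.99 missed the threshold with limma (adjusted p = 0.0534), passed with edgeR on recovered reads (-2.25, adjusted p = 0.0497) and passed with limma without control 2 (adjusted p = 0.0436). Sox8 shares 10.6% of its exonic bases with 2810468N07Rik.

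Among SoxF genes, 1 of 3 was higher, against 9.81% of all genes. Sox7, an endothelial factor, was 24.1, 40.4 and 34.4 in controls, against 58.5, 60.9 and 71.7 in dKO libraries, a dKO mean of 193% of control (log2 change 0.95, SE 0.19, limma adjusted p = 0.0056). Sox18, which acts in vessel and lymphatic development, was 6.95, 21.2 and 17.2 in controls, against 17.6, 14.3 and 17.5 in dKO libraries. Control 1 was the low library and the groups overlapped (log2 change 0.24, limma adjusted p = 0.665). Sox17, of arterial endothelium, was 5.28, 9.54 and 10.9 in controls, against 12.03, 12.8 and 10.6 in dKO libraries (log2 change 0.47, limma adjusted p = 0.241), with control 1 again the lowest; it shares 16.8% of its exonic bases with Gm37587.

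Pan-endothelial markers gave summed levels of 1194, 1497 and 1835 in controls and 1563, 1609 and 1454 in dKO libraries, so they did not separate the groups, and control 1 was the lowest there too. Of those 12 markers 0 were higher and 1, the angiopoietin receptor gene Tek, was lower (log2 change -0.91, limma adjusted p = 0.0005). Lymphatic markers were lower for 6 of 8 and higher for 1 (median log2 change -3.02), against 12.2% and 9.81% of all genes. The lymphatic factor gene Prox1 did not pass (log2 change 0.35, limma adjusted p = 0.198). The ratio of Sox7 to Sox18 was 3.47, 1.91 and 2.002 in controls, against 3.33, 4.26 and 4.10 in dKO libraries. Control 1 fell among the dKO libraries for this ratio (exact permutation p = 0.2, adjusted p = 0.222).

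Of the SoxC genes, Sox11, expressed in progenitor cells and needed for outflow tract development, was higher. It was 23.3, 27.9 and 29.2 in controls, against 44.5, 48.6 and 42.2 in dKO libraries, without overlap (log2 change 0.73, SE 0.15, limma adjusted p = 0.0059). Sox12 was 51.8, 58.0 and 44.2 in controls, against 59.3, 55.5 and 57.8 in dKO libraries, with overlapping groups (log2 change 0.17, limma adjusted p = 0.414). The ratio of Sox11 to Sox12 was 0.450, 0.482 and 0.660 in controls, against 0.751, 0.876 and 0.730 in dKO libraries (exact permutation p = 0.1, adjusted p = 0.125).

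Sox4, like Sox11 a progenitor and outflow tract gene, had a larger SD than any other of the 12 Sox genes in either group, at 28.4, 114 and 41.4 in controls and 122, 47.8 and 54.3 in dKO libraries. Its log2 change was 0.40 (SE 0.47, limma adjusted p = 0.589). Over 54.6% of its exonic bases Sox4 overlaps the predicted gene Gm26735, and the share of reads given to either depends on the quantification. Gm26735 was 91.3, 39.2 and 82.1 in controls, against 67.3, 120 and 136 in dKO libraries, low in control 2 and dKO 1, where Sox4 was high. The sum of both was 120, 154 and 123 in controls, against 189, 167 and 190 in dKO libraries, which did not overlap (exact permutation p = 0.1, the smallest possible; chosen after the values were seen). Values for Sox4 alone are therefore uncertain. Sox3, a SoxB gene of neural progenitors, was 0.278, 1.31 and 0.603 in controls, against 1.03, 2.26 and 1.68 in dKO libraries and did not pass (log2 change 0.63, limma adjusted p = 0.225).

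**Figure D3:**
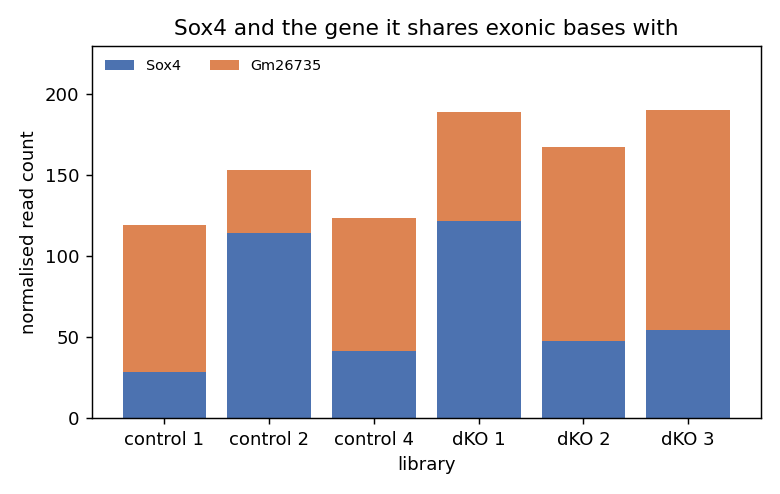
Stacked bars of the normalised read counts (y axis) of Sox4 and of Gm26735, which share exonic bases, in each library (x axis). Sox4 takes most of the sum in control 2 and dKO 1 only, and the sums are 120 to 154 in controls and 167 to 190 in dKO libraries.

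The forkhead genes changed least. With limma 0 of 17 passed, with edgeR on recovered reads 0 passed, and 4 of 17 (Foxk2, Foxj2, Foxo1 and Foxo6) had an unadjusted p under 0.05, against 35.1% of all genes. Missing the threshold does not show that the groups were alike. All 4 FoxO genes, which act in stress resistance and metabolism, had lower dKO than control means, with log2 changes from -0.27 (Foxo3) to -0.83 (Foxo6). Foxo1 was 59.4, 48.8 and 57.6 in controls, against 46.0, 42.5 and 42.5 in dKO libraries, without overlap (log2 change -0.33, SE 0.13, limma adjusted p = 0.104). Foxo3 was 70.1, 65.5 and 64.8 in controls, against 68.8, 59.8 and 40.8 in dKO libraries, with dKO 3 the lowest (limma adjusted p = 0.323).

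Foxo4 was 44.0, 47.2 and 35.1 against 38.5, 33.7 and 26.5, with overlap (log2 change -0.35, limma adjusted p = 0.189). Foxo6 was low, at 3.18, 2.90 and 1.68 in controls and 1.71, 0.555 and 0.853 in dKO libraries, and its lowest control met the highest dKO library (limma adjusted p = 0.105).

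The FoxK genes encode repressors that act in metabolism and autophagy. Foxk2 was 50.5, 55.0 and 53.9 in controls, against 66.0, 70.2 and 66.5 in dKO libraries, with narrow groups that did not overlap (log2 change 0.34, SE 0.12, limma adjusted p = 0.0624). It was the only forkhead gene whose dKO libraries all lay above the controls, and it passed with quantile normalization (limma adjusted p = 0.0463). Foxk1 was 24.1 ± 3.51 and 25.8 ± 3.21 (SD, n = 3; log2 change 0.096, limma adjusted p = 0.738).

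Among the remaining forkhead genes, Foxj2 (43.8 ± 1.76 and 34.3 ± 2.67, log2 change -0.35, limma adjusted p = 0.0915) and Foxp1, which acts in heart development (59.3 ± 1.48 and 50.05 ± 3.01, -0.24, limma adjusted p = 0.184), had groups that did not overlap (SD, n = 3). Foxj3 was 74.6, 58.9 and 58.0 in controls, against 68.2, 59.6 and 59.3 in dKO libraries, with a log2 change of -0.03. Foxn3, a checkpoint-related repressor, was 64.4, 48.1 and 54.8 in controls, against 62.4, 70.4 and 71.0 in dKO libraries (log2 change 0.29, limma adjusted p = 0.175), and passed only with control 1 and dKO 1 both left out (0.45, limma adjusted p = 0.0345). Foxn2 was 29.2 ± 6.16 and 25.3 ± 2.91 (SD, n = 3). The ratio of Foxn3 to Foxn2 was 1.81, 2.06 and 1.91 in controls, against 2.20, 2.84 and 3.14 in dKO libraries (exact permutation p = 0.1, adjusted p = 0.125).

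The vessel genes Foxc1 (10.3 ± 1.12 and 13.5 ± 3.33) and Foxc2 (4.81 ± 1.57 and 4.13 ± 1.14, SD, n = 3) did not pass, with log2 changes of 0.34 and -0.16. For Foxc2, a gene of lymphatic valves, the dKO mean was 85.9% of control, with overlapping groups. Its estimate changed sign without control 1, so it does not show whether Foxc2 was kept. The pericyte-expressed Foxs1 was 3.97 ± 0.845 and 3.76 ± 1.65 (SD, n = 3, log2 change -0.11), on 26 to 84 reads per library. Of 10 mural markers 7 were higher, against 9.81% of all genes, and their relation to the Foxs1 value was not tested. Foxp2 was 20.5, 21.4 and 16.6 in controls, against 35.0, 20.5 and 19.9 in dKO libraries, with dKO 1 alone above the controls, and Foxp4 was 11.6 ± 0.944 and 10.5 ± 2.54 (SD, n = 3). Foxm1 was 43.3, 43.7 and 48.2 in controls, against 42.4, 61.5 and 53.3 in dKO libraries (log2 change 0.20, limma adjusted p = 0.399).

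**Figure D4:**
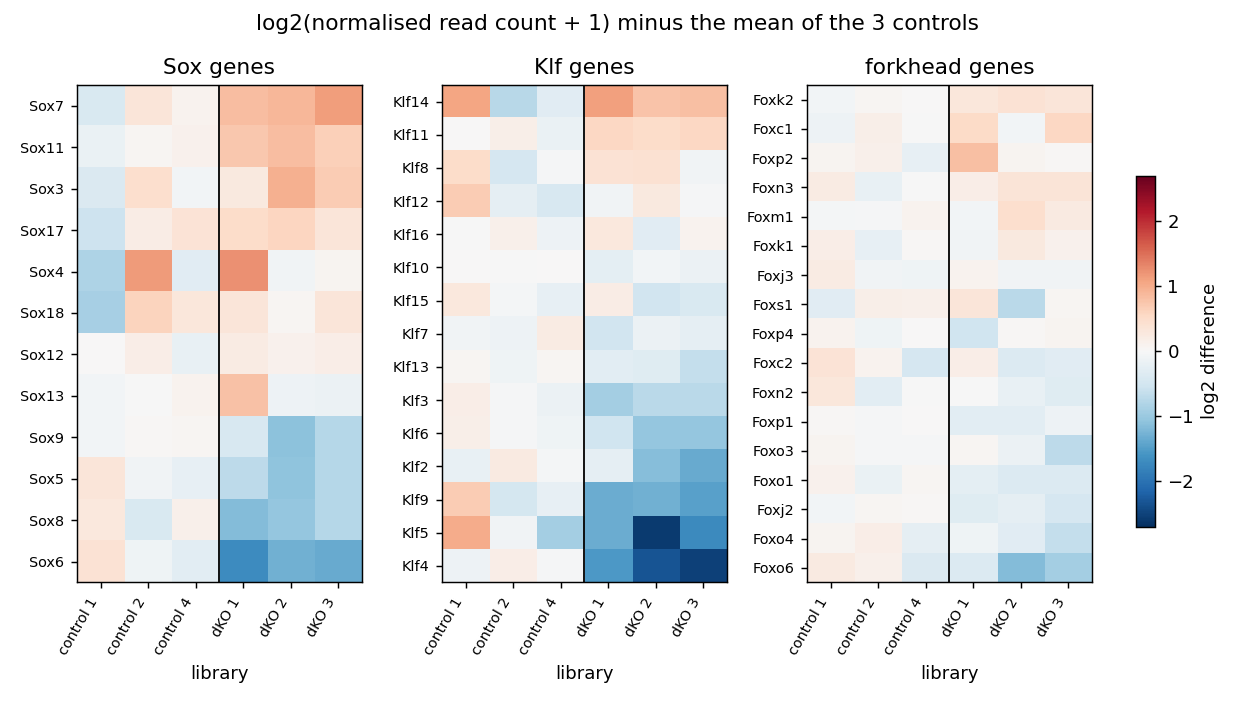
Each cell shows log2 of the normalised read count plus 1 in 1 library (columns) minus the mean of the 3 controls for 1 gene (rows), sorted within a family by log2 change. The dKO columns are blue for the lower Klf and Sox genes, down to Klf4, and pale for most forkhead genes; dKO 1 stands out in Foxp2 and Sox13, and control 1 in Klf14, Klf5 and Sox18.

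Lists of target and partner genes of the families gave mixed counts, to be read beside the 9.81% of all genes that were higher and the 12.2% that were lower. Of 19 FoxO kinases and targets 8 were higher and 1 lower, with a median log2 change of -0.01 against 0.00 over all genes. The higher ones included the muscle ubiquitin ligase Trim63 (32.0 ± 10.4 to 92.5 ± 7.60, log2 change 1.56, limma adjusted p = 0.00099), the pro-apoptotic Bcl2l11 (0.80, limma adjusted p = 0.0036) and the superoxide dismutase Sod2 (1.05, limma adjusted p = 0.0045). Of 12 mitotic genes linked to Foxm1, 6 were higher and 0 lower (median 0.47), with Cenpf (0.82), Kif20a (0.69) and Ccnb1 (0.57) at the smallest p, while Foxm1 itself did not pass. Cardiomyocyte markers, of which 18 of 20 were higher (median 1.68), moved the same way as these higher genes, and Trim63 is itself a gene of striated muscle; their part in these counts was not tested. Of the Sp factors, zinc finger relatives of the Klf family, 2 of 5 in the table were lower, Sp1 (125 ± 21.4 to 84.2 ± 3.32, log2 change -0.55, limma adjusted p = 0.0199) and Sp3 (146 ± 15.2 to 107 ± 8.27, -0.45, limma adjusted p = 0.0288), and 0 were higher.

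Of 8 endothelial genes known as Klf2 or Klf4 targets, the nitric oxide synthase gene Nos3 was higher (12.3 ± 5.46 to 31.9 ± 6.34, SD, n = 3; log2 change 1.39, limma adjusted p = 0.0112). Thbd, which encodes thrombomodulin (log2 change -1.16, limma adjusted p = 0.0161), and the endothelin gene Edn1 (-1.03, limma adjusted p = 0.0047) were lower, and 5 did not pass. Nos3 and Thbd are induced and Edn1 is repressed by these factors in endothelium. Of 5 cartilage-type matrix genes known as Sox9 targets 2 were lower, Col11a1 (-0.59, limma adjusted p = 0.017) and Hapln1 (-1.20, limma adjusted p = 0.0192), and Col2a1 did not pass (log2 change 1.37, limma adjusted p = 0.114).

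Summed levels of the Schwann lineage markers were 394 to 433 in controls and 131 to 155 in dKO libraries, with most from Pmp22 in both groups. Of these markers 4 of 8 were lower. They included Pmp22 (316 ± 23.7 to 94.2 ± 13.1, SD, n = 3; log2 change -1.74), which many mesenchymal cells also express, and the myelin gene Mbp (48.9 ± 15.2 to 7.63 ± 2.72, -2.54). Cdh19 had at most 1 read in each dKO library. Their part in the Sox8 value was not tested. Erythroid markers ran from 1125 to 2271 in controls and 1399 to 2082 in dKO libraries, with 0 of 9 called by limma. Of fibroblast markers 9 of 10 were lower (12092 to 15551 in dKO libraries against 29016 to 32952), of macrophage markers 3 of 7 and of mast cell markers 3 of 4 were lower, and of neuronal and of lung and foregut markers 0 of 2 each passed with limma. For lung and foregut markers control 1 had a sum of 44.8, of which Hoxa5 made 40.6, while controls 2 and 4 had 3.64 and 4.32. The part of these other cell types in the changes of Sox and Klf genes was not tested. The fit that follows holds a score for cardiomyocytes only.

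With the mean log2 value of the cardiomyocyte markers as a covariate, 1.94% of all genes passed with limma (0.412% higher, 1.53% lower), and of the 44 genes 0 were higher and 1 was lower. That gene was Klf4, with a log2 change of -2.65 (SE 0.51, limma adjusted p = 0.0225). The score did not overlap between the groups (7.20, 8.31 and 8.38 in controls, 9.79, 9.54 and 9.55 in dKO libraries), so such a fit separates score and genotype poorly, and the median SE over all genes rose from 0.21 to 0.44. Of the 12 changed genes 11 kept their sign, with Klf6 at -0.68, Klf3 at -0.36, Klf2 at -1.61, Sox9 at -1.09, Sox6 at -0.51, Sox5 at -0.24, Sox11 at 0.35, Sox7 at 0.17 and Klf11 at 0.58. Klf5 was at -0.0014 and Klf9 at 0.04, against -1.88 and -1.37 without the covariate. Both had their highest control value in control 1, the library with the lowest score. So did the lower genes Klf3, Klf6, Sox5 and Sox6, and whether this bears on the fit was not tested.

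Control 1 was the highest of the 3 controls for 10 of 15 Klf and 10 of 17 forkhead genes, against 33.9% of all genes, and the lowest for 8 of 12 Sox genes, against 38.4%. Leaving it out ended 1 of the 12 calls, that of Sox5, and added that of Klf14. Leaving out dKO 2 ended the calls of Sox5, Sox9, Klf2, Klf5 and Klf11.

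Levels of different genes were compared per kb of exon (GENCODE M21 gene models), a scale on which Sox4 (12.8), Sox12 (11.5), Sox7 (9.996) and Sox18 (9.33) were the highest Sox genes in controls, with overlapping spreads. In dKO libraries Sox7 (19.3 ± 2.13) and Sox4 (15.6 ± 8.55, SD, n = 3) had the highest means and did not differ beyond their spread. In dKO 1 Sox4 (25.4) was above Sox7 (17.7), and Sox4 values are uncertain as described. Of the Klf genes, Klf6 (43.8 ± 4.47) stood above Klf4 (20.1 ± 2.25) and Klf2 (18.2 ± 2.95, SD, n = 3) in controls. The spreads of Klf4 and Klf2 overlapped, but within each control Klf4 was the higher (18.2, 22.6 and 19.5 against 15.6, 21.4 and 17.4). Within each dKO library Klf2 was the higher (15.2, 7.87 and 6.63 against 6.64, 3.75 and 3.22). In dKO libraries Klf6 (24.0 ± 5.07) was followed by Klf2 (9.91 ± 4.65), Klf11 (8.13 ± 0.205), Klf10 (7.45 ± 0.525) and Klf3 (7.30 ± 0.537), and Klf4 stood at 4.53 ± 1.84 (SD, n = 3). Forkhead genes ran from 0.990 (Foxo6) to 12.1 (Foxo4) in controls and from 0.397 (Foxo6) to 12.9 (Foxk2) in dKO libraries, and their sum was 90.1, 85.7 and 84.0 in controls, against 86.7, 83.9 and 78.8 in dKO libraries. The Sox sum was 45.4, 78.9 and 56.6 in controls, against 84.6, 65.1 and 71.4 in dKO libraries, with overlap.

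**Figure D5:**
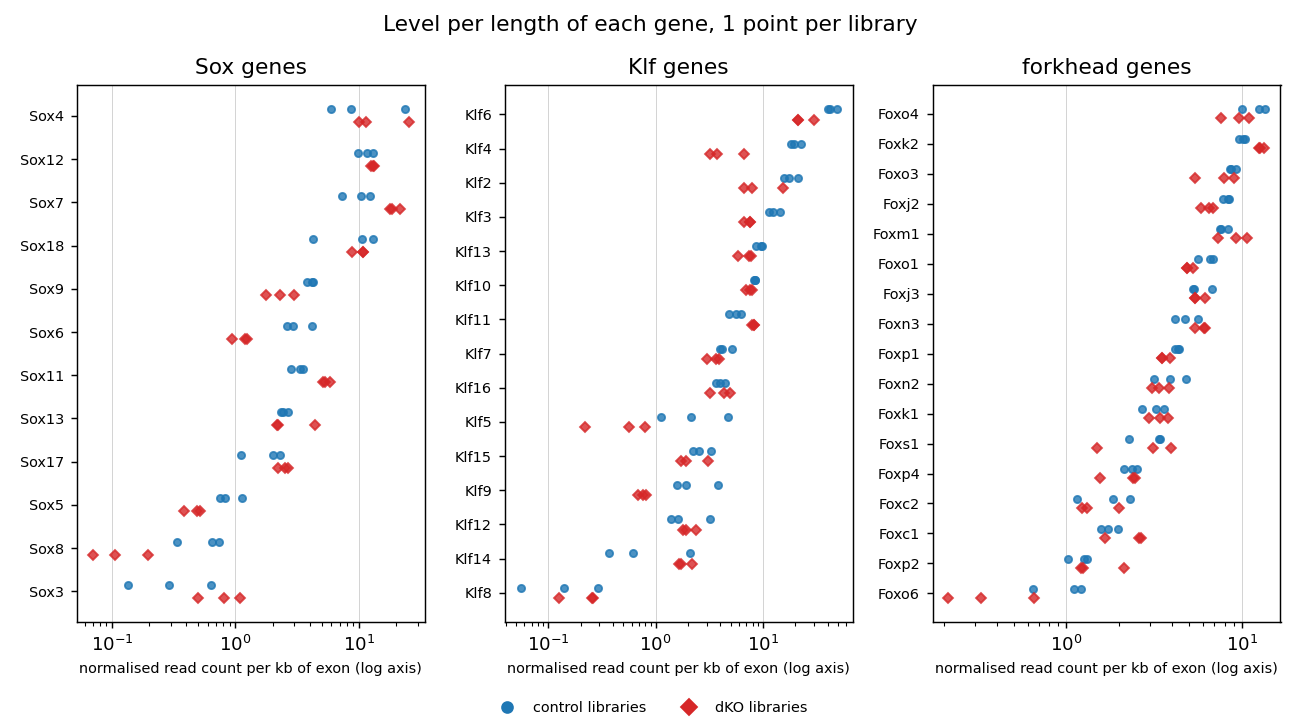
Normalised read count per kb of exon on a log axis for each gene, ordered by control mean, with 1 blue circle per control and 1 red diamond per dKO library. Klf6 leads its family in both groups, Klf4 drops from 20.1 to 4.53, and Foxk2 takes the first forkhead place from Foxo4.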

How the data were processed

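Polyadenylated RNA from 3 control and 3 dKO pools was sequenced. The submitters' processing notes name cutadapt, RSEM 1.3.1 and the build GRCm38. For the annotation release, the normalization and any gene filter, the sources used here give nothing. The values the authors deposited are a normalised signal per gene. Each of the 87294 values (100.0%) was, within 0.01 reads, a whole read number plus 0.5 in steps fixed per library, on the scale of edgeR's TMM factors. The kit is not stated to keep strand, so reads in overlapping exons can belong to either gene. Groups were tested by limma 3.58.1 (R 4.3.3) on log2(value + 1), a scale that understates the change of low genes, with a variance trend, two-sided p-values and Benjamini-Hochberg adjustment over all genes. edgeR 4.0.16 on recovered reads (quasi-likelihood) called 2956 genes (20.3%). Both fits were run on simulated data in which every gene had the same dispersion (spread between replicates). That checks the code and not the error rates in these pools. By rule, every changed member was named, and per family the 4 changed members of smallest p, the 2 unchanged ones of highest mean and those whose call moved with 1 library left out were given by library; other members given by library, Tek, Prox1 and Col2a1 were added after their values were seen. Up to 3 changed genes of a list were named. Alternatives are an offset of 0.5 or 5, a filter at 5 or at 1, quantile normalization, no trend, edgeR, a replicate block, the cardiomyocyte score, and each library left out. Members, subgroups and lists were chosen with earlier results of these data known.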

Additional observations from a re-analysis of the deposited data

How the results depend on the processing

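Counts of changed genes were 2 higher and 3 lower for Sox, 1 and 6 for Klf and 0 and 0 for forkhead genes, and 1427 and 1778 for all genes. Over the fits that each left out 1 library they ran from 1 to 3 for lower Sox genes, 0 to 2 for higher Klf genes, 4 to 6 for lower Klf genes, 898 to 1262 for all higher and 1269 to 1545 for all lower genes; for higher Sox genes (2) and forkhead genes (0) they stayed at 1 value. With the cardiomyocyte score as a covariate 0 Sox genes were higher and 0 lower, 0 Klf genes higher and 1 lower, and 60 and 222 of all genes. With the replicate number as a block, which leaves 1 residual degree of freedom, 0 Sox genes were higher and 1 lower, 0 Klf genes higher and 4 lower, and 580 and 780 of all genes. The labels do not say that the numbers pair the pools, and same-numbered libraries deviated in opposite directions (correlations -0.18 and -0.20). Quantile normalization gave 1 higher forkhead gene, Foxk2, and so did leaving out control 1 and dKO 1 together, with Foxn3, an alternative chosen after seeing the data. Over all 44 genes the estimate changed sign for 12 with the covariate (1 of them called, Klf9; also Sox18, at -1.65, and Sox17, at -0.71), for 6 without control 1 and dKO 1, for 2 with the block, for 1 with edgeR, and for 10 with some single library left out, among them Sox18 (-0.21 without control 1). Among the genes named by rule the sign changed for Sox4 (-1.62 with the covariate, -0.43 without control 1 and dKO 1, and -0.015 and -0.011 without 1 of them, within -0.015 to 0.97 over single libraries left out), Klf9 (0.038 with the covariate) and Foxj3 (0.40 with the covariate, 0.024 without control 1 and dKO 1, and 0.089, 0.0039 and 0.0077 without control 1, dKO 2 or dKO 3, within -0.092 to 0.089); the cause was not tested. Of 319 values of named genes under alternatives 265 kept direction and side of the threshold. Genes near 1, such as Sox8, Sox3 and Klf8, rest on few reads.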
